A study of Mus musculus with 8 samples.

Results

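The 9 genes followed here mark upper-layer and callosal neurons: Cux1, Cux2, Pou3f1, Pou3f2, Pou3f3, Rorb, Mdga1, Unc5d and Lmo4. They are 9 of the 27179 genes in the deposited count table. They were chosen by name as established markers of these neurons, with earlier results of these data known. Each was found by its Entrez number. RNA came from embryonic mouse cerebral cortex of 4 Taf8 wild-type embryos (Taf8 +/+) and 4 Taf8-deleted embryos (Taf8 -/lox, a null allele and a lox allele), with poly(A) RNA made into stranded libraries and read in pairs. Taf8 is one of the proteins of TFIID, which recognises core promoters and brings RNA polymerase II to the start of a gene. The sources used here do not give the embryonic day, the strain, any Cre driver or the cell type in which it acts. Every value has n = 4 libraries per group, each from its own embryo.

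Upper-layer neurons are the last excitatory neurons born in the cortex. They settle in layers II to IV, and many send their axons through the corpus callosum to the other hemisphere. Cux1 and Cux2 are cut-class homeobox transcription factors that shape dendrites and synapses of these neurons, and Pou3f1, Pou3f2 and Pou3f3 are class III POU transcription factors, of which Pou3f2 and Pou3f3 act together in the production and migration of upper-layer neurons. Rorb is a nuclear receptor of layer IV. Mdga1 is a membrane-anchored protein of the immunoglobulin superfamily that binds neuroligins, Unc5d is a receptor of the netrin receptor family present in migrating upper-layer neurons, and Lmo4 is a LIM-only adaptor that works through Ldb proteins and is expressed in several neuron classes besides callosal ones.

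The sequences before the starts of these genes are shown because related genes responded to different degrees, and because Taf8 belongs to a promoter-binding complex. RefSeq (GRCm38.p6, the same sequence as mm10) gave windows for 7 of the 9 genes, 11 windows in all. Each covers the 250 bases before a start site, and those of Cux1, Cux2, Pou3f2 and Pou3f3 are printed 5′ to 3′ on the strand of the gene. The windows of Cux1, Cux2 and Mdga1 lie inside the gene spans given below, so they are not sequence upstream of the whole gene. Those of Pou3f2 and Pou3f3 lie just outside the spans. Capitals mark CCAAT (or its reverse complement ATTGG) and TATAAA (or TTTATA). The first pair belongs to Cux1 and Cux2, the Cux2 gene having another start site further down, printed as the third sequence. The last pair belongs to Pou3f2 and Pou3f3.
Cux1: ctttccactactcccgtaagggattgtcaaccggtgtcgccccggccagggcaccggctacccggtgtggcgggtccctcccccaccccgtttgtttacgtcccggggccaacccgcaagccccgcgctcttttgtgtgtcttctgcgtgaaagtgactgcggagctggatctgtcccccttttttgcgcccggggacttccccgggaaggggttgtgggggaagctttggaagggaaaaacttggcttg
Cux2: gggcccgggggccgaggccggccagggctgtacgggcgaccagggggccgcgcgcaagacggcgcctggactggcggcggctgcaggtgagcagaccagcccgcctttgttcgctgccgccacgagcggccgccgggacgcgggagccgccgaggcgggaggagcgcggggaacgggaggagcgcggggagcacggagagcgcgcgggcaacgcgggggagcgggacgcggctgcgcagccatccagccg
Cux2, second start: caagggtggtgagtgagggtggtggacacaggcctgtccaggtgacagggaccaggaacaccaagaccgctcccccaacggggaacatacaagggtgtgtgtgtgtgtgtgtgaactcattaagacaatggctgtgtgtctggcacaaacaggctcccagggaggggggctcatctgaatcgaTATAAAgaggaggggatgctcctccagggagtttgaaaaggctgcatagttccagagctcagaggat
Pou3f2: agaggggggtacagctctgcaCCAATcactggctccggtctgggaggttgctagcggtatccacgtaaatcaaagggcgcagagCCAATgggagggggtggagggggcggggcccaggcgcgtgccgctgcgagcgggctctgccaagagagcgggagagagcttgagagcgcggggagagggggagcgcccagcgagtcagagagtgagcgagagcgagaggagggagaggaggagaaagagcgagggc
Pou3f3: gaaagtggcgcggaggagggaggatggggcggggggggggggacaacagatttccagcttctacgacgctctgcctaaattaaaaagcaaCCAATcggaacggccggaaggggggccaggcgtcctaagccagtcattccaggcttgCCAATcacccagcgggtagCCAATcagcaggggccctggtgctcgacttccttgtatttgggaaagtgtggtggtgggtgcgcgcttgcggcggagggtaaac
These windows lie at chr5:136565982-136566231 (minus strand), chr5:122049852-122050101 (minus), chr5:122047826-122048075 (minus), chr4:22488367-22488616 (minus) and chr1:42695518-42695767 (plus).

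TATAAA stood in 1 of the 11 windows, that of the second Cux2 start, 67 bases before it, which is 9.09% against 6.72% of the 15090 windows of genes tested. CCAAT stood in 3 of the 11 (27.3% against 35.1%), 1 each at Pou3f2, Pou3f3 and Rorb. Pou3f3 had 3 copies, beginning 160, 103 and 84 bases before the start, and Pou3f2 had 2, beginning 229 and 166 bases before it. The GC box GGGCGG, searched on both strands and not capitalised, stood in 7 windows of 5 genes (63.6% against 56.3%). These windows are not all separate: those of Lmo4 at chr3:144202397-144202646 and chr3:144202333-144202582 overlap and hold the same GC boxes. None of these matches is a measured binding site. The windows were GC-rich, with a median GC share of 66.8% and 18 CpG pairs, against 59.6% and 15 over the windows of genes tested.

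The libraries held 26312505 to 65523487 counts. Taf8 itself checked the labels: it stood at 38.5, 35.0, 32.0 and 33.7 CPM (counts per 1000000 counts of the TMM-scaled library) in wild-type replicates 1 to 4 and at 0.791, 0.747, 0.486 and 0.547 CPM in the deleted replicates. Wild-type replicate 3, the deepest library, stood apart from the other wild-type libraries, its chi-square per degree of freedom against each of them being 22.1 to 27.0, while pairs of the others gave 4.79 to 6.98, a measure that also grows with depth. It had the highest mean level of pan-neuronal markers (8.29 on the log2 CPM scale, against 8.07 to 8.15 in the other wild-type libraries). All 20 pan-neuronal and 16 deep-layer cortical markers passed the filter on low counts. The animal numbers of wild-type replicates 1, 2 and 3 begin alike and unlike those of any deleted embryo, so a litter or batch marked by these numbers cannot be told apart from genotype, and p-values may be too small if these are littermates.

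Of the 9 genes, 8 were lower in Taf8-deleted cortex, 0 were higher and 1 did not pass the test (edgeR quasi-likelihood test, Benjamini-Hochberg adjusted p under 0.05 over all 15649 genes tested). The background was broad: 59.2% of all genes tested were called in either direction, 29.6% as lower and 29.5% as higher. The call of Mdga1 was at the edge of the test and was lost in most alternatives. All 9 genes passed the filter on low counts. Their median log2 fold change was -0.46, against 0.01 over all genes tested, and the changes ran from -0.87 for Unc5d to 0.08 for Lmo4. In 7 genes every deleted library lay below every wild-type library, which was so for 27% of all genes tested (53.6% in either direction). In these bulk samples, fewer cells of a type and less RNA per cell cannot be told apart.

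**Figure D1:**
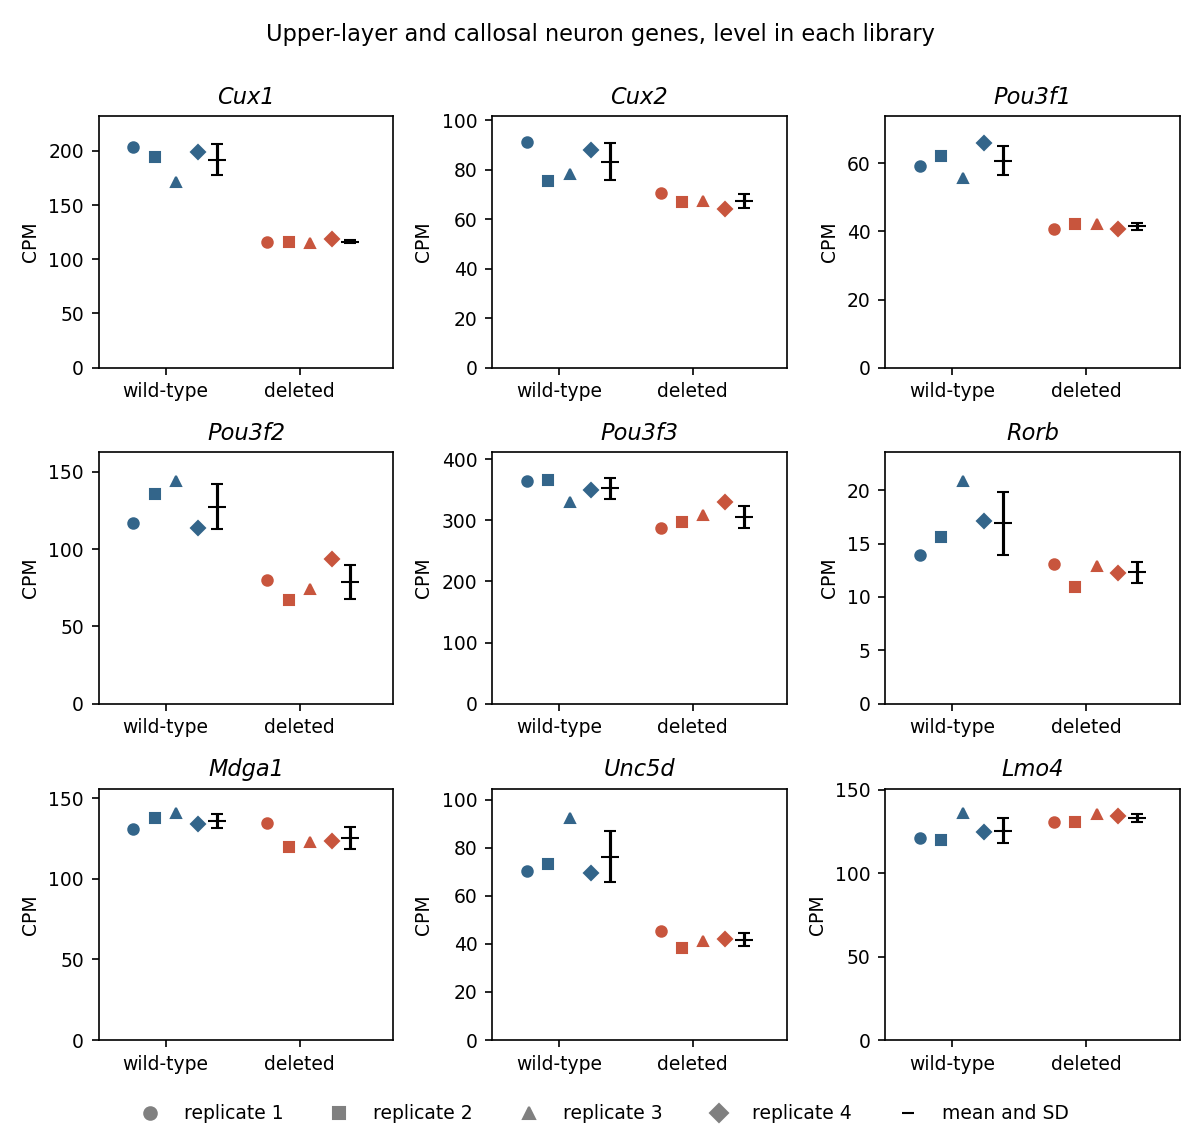
Level of each gene in CPM (vertical axis, from 0) in the 4 wild-type libraries (blue) and the 4 Taf8-deleted libraries (red), with marker shapes for the replicate numbers and a black mark for the mean with its SD. The groups are apart for all genes but Mdga1 and Lmo4, and the deleted Cux1 values span 115 to 118 CPM.

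The Cux genes both fell, Cux1 more than Cux2. Cux1 (Entrez gene 13047, chromosome 5, 136248135 to 136567590, minus strand, mm10) stood at 204, 194, 171 and 199 CPM in wild-type replicates 1 to 4 and at 116, 116, 115 and 118 CPM in the deleted replicates. The deleted libraries were nearly equal to each other (SD 1.60 around a mean of 116 CPM, against SD 14.3 around 192 CPM in wild-type), and all lay below the lowest wild-type library. The fall was 1.65-fold (log2 fold change -0.72, SE 0.05, edgeR adjusted p = 1.65e-06). The Cux1 gene also encodes CASP, a Golgi protein that shares its first exons, and the counts per gene do not separate them.

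Cux2 (Entrez gene 13048, chromosome 5, 121857962 to 122050415, minus strand) stood at 91.0, 75.4, 78.3 and 88.1 CPM in wild-type and at 70.7, 66.9, 67.2 and 64.0 CPM in deleted cortex. The groups did not overlap, but the gap between the highest deleted and the lowest wild-type library was smaller than the wild-type SD of 7.51 CPM. The fall was 1.24-fold (log2 fold change -0.31, SE 0.06, edgeR adjusted p = 0.00174). It was not called when the change had to exceed 1.2-fold (adjusted p = 0.243).

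The ratio of related genes within each library, a quantity that no scaling affects, was read for 4 pairs. It uses the same libraries and counts as the fold changes, so it sizes the difference between them and is no independent support for it. Cux1 had 2.24, 2.58, 2.19 and 2.25 counts per Cux2 count in the wild-type libraries and 1.64, 1.73, 1.71 and 1.85 in the deleted ones. All deleted ratios lay below all wild-type ratios. How often the ratios of other gene pairs separate in this way was not computed. Of single genes tested, 53.6% did not overlap between the groups. The mean ratio went from 2.31 to 1.73, a log2 difference of -0.42 (exact two-sided permutation test over 70 splits, p = 0.0286, the smallest that 4 against 4 allow, and 0.0381 after adjustment over the 4 pairs compared).

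Pou3f2 (Brn2, Entrez gene 18992, chromosome 4, 22482095 to 22488366, minus strand) had the largest fold change among the POU genes, but not with the level of meningeal fibroblast markers as a covariate, where it was at -0.47 and Pou3f1 at -0.62. It stood at 117, 136, 144 and 114 CPM in wild-type and at 80.2, 67.3, 73.9 and 93.3 CPM in deleted cortex. Wild-type replicate 3 was the highest of all and deleted replicate 4 the highest of its group, and the groups did not overlap. The fall was 1.62-fold (log2 fold change -0.69, SE 0.10, edgeR adjusted p = 0.00021).

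Pou3f1 (Oct6, Entrez gene 18991, chromosome 4, 124657646 to 124660655, plus strand) stood at 59.3, 62.2, 55.8 and 65.8 CPM in wild-type and at 40.7, 42.3, 42.3 and 40.7 CPM in deleted cortex. As for Cux1, the deleted libraries were close together (SD 0.94 CPM). The fall was 1.47-fold (log2 fold change -0.55, SE 0.05, edgeR adjusted p = 9.3e-06).

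Pou3f3 (Brn1, Entrez gene 18993, chromosome 1, 42695768 to 42700210, plus strand) was the most abundant of the 9 genes and changed least of the POU genes. It stood at 364, 366, 330 and 349 CPM in wild-type and at 287, 298, 309 and 329 CPM in deleted cortex, so that wild-type replicate 3 and deleted replicate 4 nearly met. The fall was 1.15-fold (log2 fold change -0.20, SE 0.05, edgeR adjusted p = 0.0062). With the meningeal covariate it was -0.16 and not called (adjusted p = 0.0712). Nor was it called when the change had to exceed 1.2-fold (adjusted p = 0.987). GENCODE has a transcript that overlaps Pou3f3 on the same strand, and the same holds for Cux1, Unc5d and Lmo4. How reads there were counted is not given in the sources used here.

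Ratios among the POU genes shifted toward Pou3f3. Pou3f2 had 0.321, 0.370, 0.436 and 0.325 counts per Pou3f3 count in wild-type and 0.279, 0.226, 0.239 and 0.284 in deleted cortex, and Pou3f1 had 0.163, 0.170, 0.169 and 0.189 against 0.142, 0.142, 0.137 and 0.123. Neither pair overlapped between groups, and the log2 differences were -0.49 and -0.34 (exact permutation p = 0.0286 for each, 0.0381 adjusted over the 4 pairs). As for the Cux pair, the share of other gene pairs that separate was not computed. The ratio of Pou3f1 to Pou3f2 overlapped between groups, with a log2 difference of 0.15 (exact permutation p = 0.429), ranging from 0.05 without wild-type replicate 3 to 0.25 without deleted replicate 4. Per base of deposited gene length, Pou3f3 made up 73.9% ± 1.41 (SD, n = 4) of the RNA of these 3 genes in wild-type and 79.1% ± 0.732 in deleted cortex, while the share of Pou3f2 was 13.1% ± 1.7 and 9.93% ± 1.04.

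**Figure D2:**
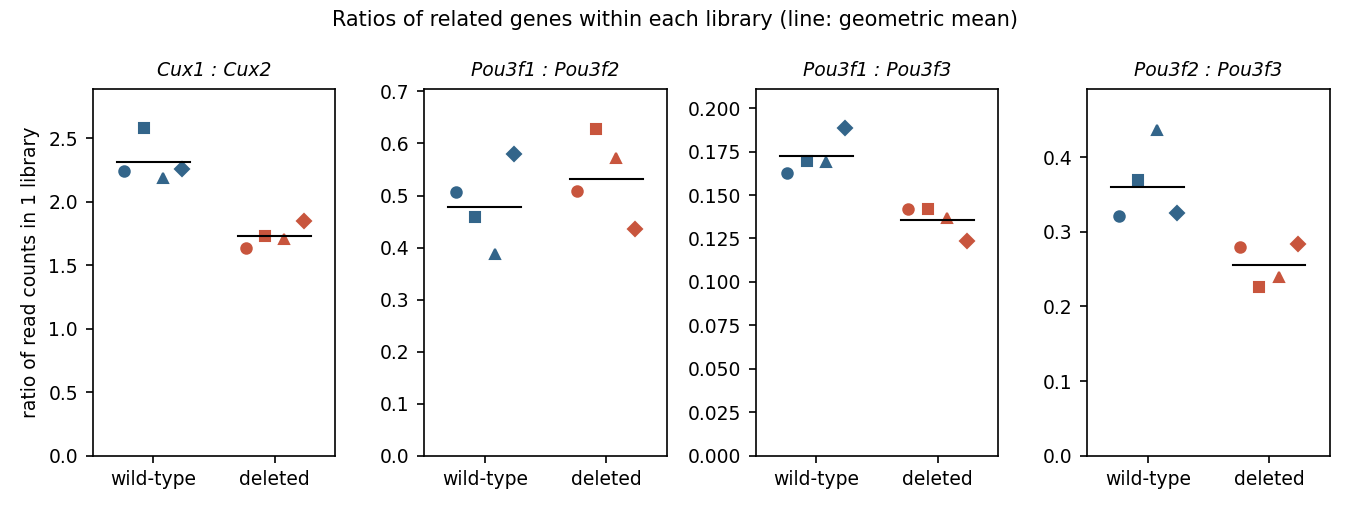
Ratio of read counts of related genes within each library (vertical axis, from 0), wild-type in blue and Taf8-deleted in red, with circle, square, triangle and diamond for replicates 1 to 4 and a line at the geometric mean. The groups are apart for Cux1 to Cux2 (means 2.31 and 1.73), Pou3f1 to Pou3f3 and Pou3f2 to Pou3f3, and overlap for Pou3f1 to Pou3f2.

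Unc5d showed the largest change of the 9 genes with every library included. Unc5d (Entrez gene 210801, chromosome 8, 28646717 to 29219671, minus strand) stood at 70.4, 73.2, 92.3 and 69.4 CPM in wild-type and at 45.3, 38.4, 41.3 and 42.2 CPM in deleted cortex. The wild-type group held 1 library far above the others, replicate 3, and every deleted library lay well below the lowest wild-type one. The fall was 1.83-fold (log2 fold change -0.87, SE 0.09, edgeR adjusted p = 1.7e-05). Without wild-type replicate 3 the log2 fold change of Unc5d was -0.76, and that of Cux1, at -0.78, was then the larger fall. The other surface protein, Mdga1 (Entrez gene 74762, chromosome 17, 29827956 to 29888583, minus strand), stood at 131, 137, 141 and 134 CPM in wild-type and at 135, 120, 123 and 123 CPM in deleted cortex. Deleted replicate 1 lay within the wild-type range. The difference was at the edge of the test (1.08-fold lower, log2 fold change -0.12, SE 0.05, edgeR adjusted p = 0.0477), and it was not called in 14 of 23 alternative analyses, among them those without wild-type replicate 2 or 3 or deleted replicate 2, 3 or 4 (adjusted p = 0.0606, 0.076, 0.0761, 0.0803 and 0.0625).

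Rorb, the layer IV gene, was the least abundant of the 9. Rorb (Entrez gene 225998, chromosome 19, 18930609 to 19111196, minus strand) stood at 13.9, 15.7, 20.9 and 17.1 CPM in wild-type and at 13.1, 10.9, 12.9 and 12.2 CPM in deleted cortex. The groups were apart by less than 1 CPM, and wild-type replicate 3 was again the highest. The fall was 1.38-fold (log2 fold change -0.46, SE 0.12, edgeR adjusted p = 0.00591), and it was not called with the meningeal covariate (-0.42, adjusted p = 0.0515) or when the change had to exceed 1.2-fold (adjusted p = 0.0587). Rorb is also a gene of the embryonic thalamus. Of 8 thalamic neuron markers 3 were lower and 0 higher (37.5% called, against 59.2% of all genes tested). Their summed level was 287 to 364 CPM in wild-type and 236 to 273 CPM in deleted libraries. Wild-type replicate 2 stood apart on this list (mean log2 CPM of 4.96, against 4.40 to 4.45 in the other wild-type and 4.27 to 4.38 in the deleted libraries), with Tcf7l2 at 38.6 CPM against 10.6 to 13.1 CPM in the other wild-type libraries, while Rorb in it lay between the other wild-type values. Their part in the Rorb difference was not tested.

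Lmo4 did not fall with the others. Lmo4 (Entrez gene 16911, chromosome 3, 144188530 to 144205255, minus strand) stood at 121, 120, 136 and 125 CPM in wild-type and at 131, 131, 136 and 134 CPM in deleted cortex. Wild-type replicate 3 was as high as the highest deleted library, and the other wild-type libraries lay below all deleted ones. The log2 fold change was 0.08 (SE 0.05, 95% interval from the SE -0.01 to 0.17, edgeR adjusted p = 0.142). Without wild-type replicate 3 it was 0.12 and was called higher (adjusted p = 0.00855), as it was with library size alone (0.13, adjusted p = 0.031) and with voom quality weights (0.12, adjusted p = 0.00797).

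Levels of different genes were compared per length, in RPKM (CPM divided by the deposited gene length in kilobases). In wild-type cortex the order was Pou3f3 at 115 ± 5.54, Lmo4 at 61.2 ± 3.57, Cux1 at 29.2 ± 2.17, Pou3f2 at 20.3 ± 2.32, Pou3f1 at 20.2 ± 1.42, Mdga1 at 17.9 ± 0.555, Cux2 at 16.3 ± 1.47, Unc5d at 8.28 ± 1.17 and Rorb at 1.8 ± 0.316 RPKM. The neighbours from Pou3f2 to Cux2 overlapped in their libraries, and the other steps did not. Pou3f3 lay at the 97th percentile of genes tested and Rorb at the 24.2nd. In deleted cortex Pou3f3 (99.8 ± 5.82 RPKM) and Lmo4 (64.9 ± 1.23) stayed on top, while Cux1 at 17.7 ± 0.243 RPKM overlapped with Mdga1 at 16.6 ± 0.879. Pou3f1 at 13.8 ± 0.312, Cux2 at 13.2 ± 0.539 and Pou3f2 at 12.5 ± 1.77 RPKM overlapped with each other, and Unc5d (4.53 ± 0.308) and Rorb (1.31 ± 0.104) were again last.

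Most neuron markers were lower in deleted cortex, so each gene was also compared with their mean. Of the 20 markers in the pan-neuronal list 16 were lower and 1 was higher (85% called, against 59.2% of all genes tested). Their median log2 fold change was -0.41, the synapsin gene Syn1 (-0.64) and Neurod2 (-0.83) being 2 of the lower ones. Neurod2, Neurod6 and Bhlhe22 in this list are transcription factors of excitatory neurons and not of all neurons. The counts were rescaled so that the mean log2 level of these 20 genes was equal in every library, which moved the median of all genes from 0.01 to 0.40. On that scale 71.7% of all genes tested were called, 7.68% as lower and 64% as higher. Unc5d (log2 fold change -0.48, SE 0.08, adjusted p = 0.000128), Cux1 (-0.34, SE 0.09, adjusted p = 0.00382) and Pou3f2 (-0.31, SE 0.08, adjusted p = 0.00407) were lower than the mean of the list by edgeR's test. Lmo4 (0.47, SE 0.06, adjusted p = 1.46e-05) and Mdga1 (0.27, SE 0.07, adjusted p = 0.00281) were higher than it. The list itself spread widely: on this scale 5 of its 20 markers were lower and 5 higher, from Neurod6 at -0.97 to Nefm at 1.05. Pou3f1 (-0.16), Rorb (-0.06), Cux2 (0.08) and Pou3f3 (0.18) did not pass (adjusted p = 0.109, 0.579, 0.47 and 0.0536). Pou3f1 passed without wild-type replicate 3 (-0.24, adjusted p = 0.00437), and Pou3f3 passed without wild-type replicate 1 (0.23, adjusted p = 0.0213), while the sign of Rorb turned without wild-type replicate 3, without Nefm and Nefl in the list, and against deep-layer markers. Pou3f3 also passed without Nefm and Nefl (0.24, adjusted p = 0.0181). With deep-layer markers as the reference, Unc5d was the 1 gene of the 9 still lower, and Cux1 (-0.19, adjusted p = 0.0626) and Pou3f2 (-0.15, adjusted p = 0.116) were not called. Cux2 (0.23, adjusted p = 0.0323) and Pou3f3 (0.33, adjusted p = 0.00189) were then higher, beside Lmo4 and Mdga1. With that reference, most genes were called higher, 11916 of the 15649 tested, and 781 were called lower. Without Neurod2, Neurod6 and Bhlhe22 in the list, an alternative chosen after seeing the data, Pou3f1 was also lower (-0.26, adjusted p = 0.0136), Unc5d, Cux1, Pou3f2, Lmo4 and Mdga1 were called as before, and the sign of Cux2 turned (-0.02, adjusted p = 0.871).

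**Figure D3:**
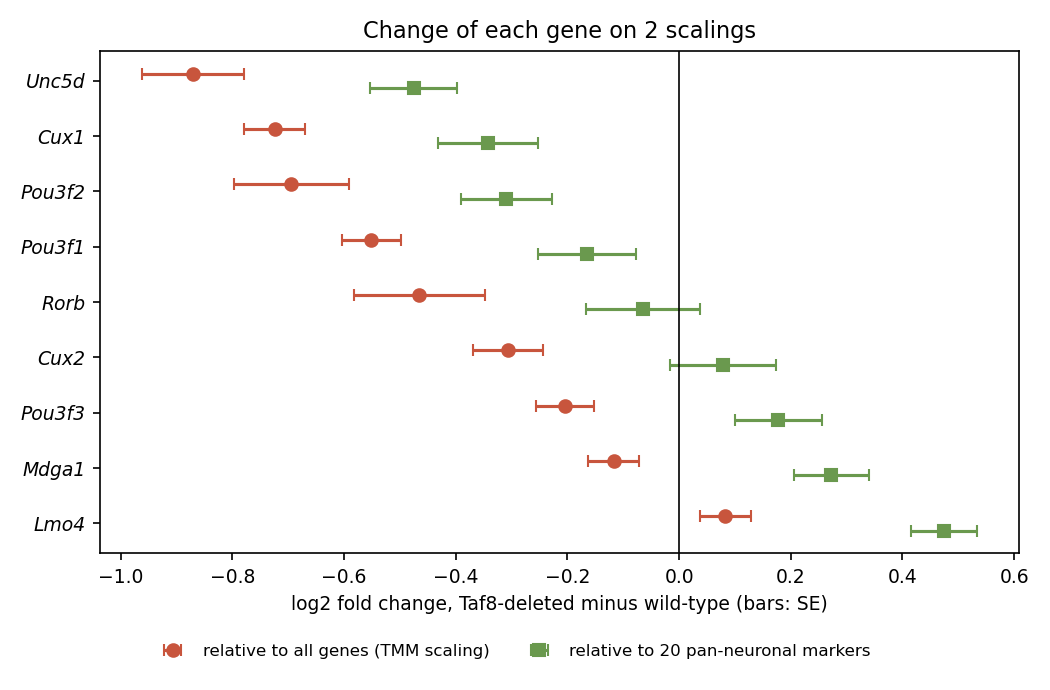
Log2 fold change of each gene (horizontal axis, Taf8-deleted minus wild-type, bars are SE) against all genes (red circles) and against the mean of the 20 pan-neuronal markers (green squares), in the order of the first. Unc5d, Cux1 and Pou3f2 lie lowest on both scales. Lmo4, Mdga1, Pou3f3 and Cux2 lie above the mean of the neuron markers, Pou3f3 and Cux2 without passing the test.

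Other markers of upper-layer and callosal neurons were read from a list of 22 genes, of which 20 passed the filter (Hspb3 and Nnmt did not). Of these, 11 were lower, 5 higher and 4 not past the test (80% called, against 59.2% of all genes tested). The median log2 fold change was -0.35. The lower ones included Limch1 at 80.5 ± 1.96 against 145 ± 6.44 CPM (SD, n = 4), the ephrin receptor gene Epha3 with a log2 fold change of -0.81, the caveolin gene Cav1 at 6.49 ± 1.22 against 21.6 ± 2.65 CPM, and the lipoprotein lipase gene Lpl at 15.3 ± 1.88 against 36.1 ± 3.84 CPM. The higher ones were the transcriptional coregulator gene Cited2 (131 ± 3.53 against 92.1 ± 2.92 CPM), the adhesion gene Nectin3 (log2 fold change 0.45), Btg1 (0.26), the LIM homeobox gene Lhx2 (0.22) and the corepressor gene Tle1 (0.14). Lhx2 is also expressed by cortical progenitors, and Nectin3, Btg1 and Cited2 are not limited to neurons. Whether the lower genes of this list are limited to neurons was not tested. Deep-layer markers were lower in 13 of 16 and higher in 1 (87.5% called, median -0.58), with Fezf2 at -0.73 and Pcp4 at -1.30.

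Relatives and partners of the 9 genes were lower in 12 of 22 tested and higher in 1, with 9 not past the test (median -0.28). The called share of this list, 59.1%, was that of all genes tested (59.2%). The neuroligin genes, whose proteins Mdga1 binds at synapses, all fell: Nlgn2 from 319 ± 14.4 to 142 ± 7.01 CPM (2.25-fold, edgeR adjusted p = 5.14e-08), Nlgn3 from 76.6 ± 2.21 to 40.4 ± 0.601 CPM, and Nlgn1 by 0.62 on the log2 scale. Of the Ldb genes, whose proteins bind LIM-only factors such as Lmo4, Ldb2 fell by 0.97 on the log2 scale, and Ldb1 was at 415 ± 15.4 against 398 ± 27.5 CPM (log2 fold change 0.06, adjusted p = 0.326). The netrin receptor gene Unc5a fell by 0.48, and the POU gene Pou3f4 by 0.45. Flrt2, which encodes a ligand of Unc5d, was at 106 ± 6.92 against 118 ± 10.9 CPM and did not pass (edgeR adjusted p = 0.0625). The 1 higher gene was Lmo2 (log2 fold change 0.22), which is also a gene of endothelial and blood cells. Xlr3b and Xlr4b, reported targets of the Cux proteins, were near or under the limit of counting (0.467 ± 0.22 against 0.239 ± 0.198 CPM for Xlr3b, edgeR adjusted p = 0.104), and Xlr4b did not pass the filter.

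**Figure D4:**
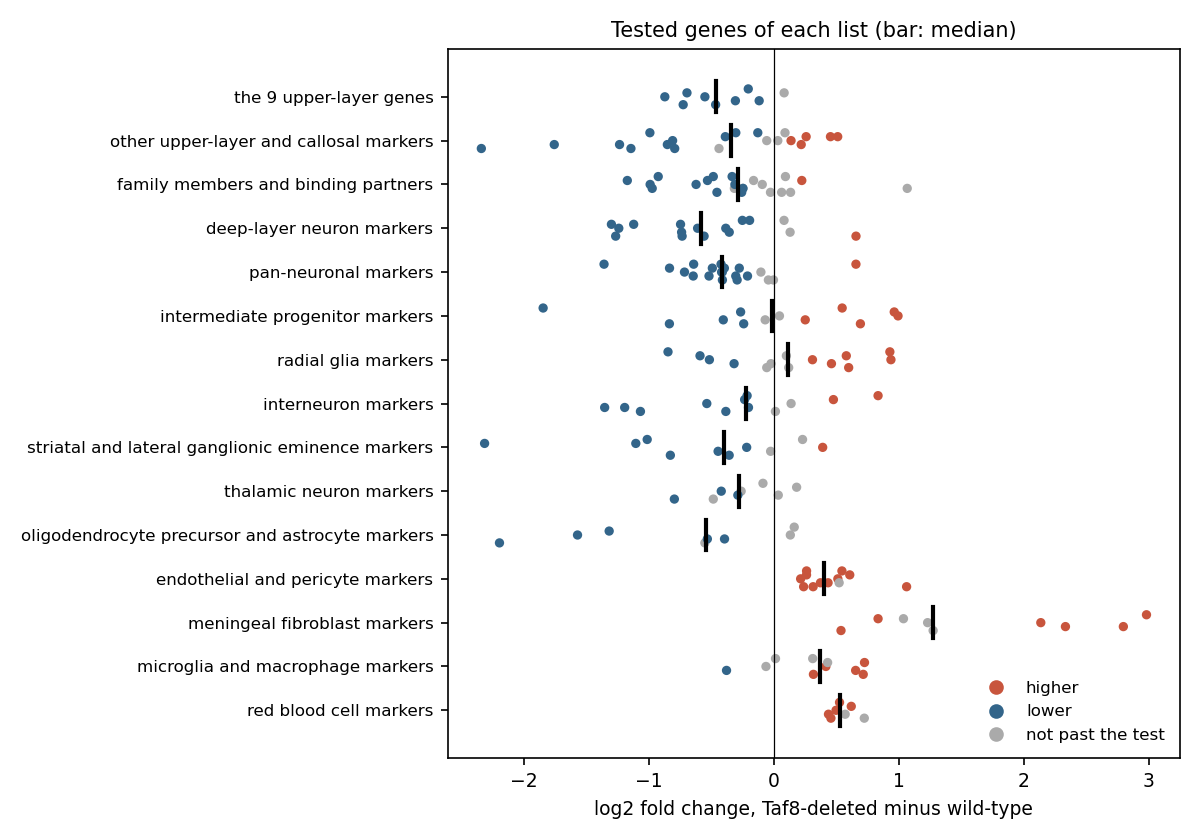
Log2 fold change (horizontal axis) of each tested gene in every list, blue for lower, red for higher and grey for genes not past the test, with a black bar at the median. The median of the 9 genes (-0.46) lies between those of the pan-neuronal (-0.41) and deep-layer (-0.58) lists, and the medians of the vascular, meningeal, microglial and red blood cell lists lie to the right of 0.

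Markers of other cells were read in the same comparison, where 59.2% of all genes tested were called in either direction. The called share was near that in the microglial list (60%) and in the oligodendrocyte precursor and astrocyte list (62.5%). It was highest, at 91.7%, in the endothelial and pericyte list. Of 12 endothelial and pericyte markers 11 were higher (Vtn and Rgs5 at 1.06 and 0.61 on the log2 scale), with a summed level of 195 to 207 CPM in wild-type and 235 to 299 CPM in deleted libraries. Meningeal fibroblast markers were higher in 6 of 9 (Crabp2 at 0.83, Col1a2 at 2.33), with 21.2 to 46.9 against 34.8 to 148 CPM. Deleted replicate 4 stood apart from its group on this list, within the wild-type range (mean log2 CPM of 0.56, against 2.43 to 3.20 in the other deleted and 0.35 to 1.69 in the wild-type libraries). Of 10 microglial and macrophage genes, 5 were higher and 1 lower (C1qb at 0.72, C1qc at 0.65), with 46.3 to 53.2 against 51.5 to 67.1 CPM, and of 7 red blood cell genes 5 were higher (Hba-a1 at 0.46, Hbb-bs at 0.50), with 256 to 330 against 341 to 466 CPM. Radial glia markers were higher in 6 and lower in 4 of 14 (Nes at 0.93, Tnc at -0.85) and intermediate progenitor markers in 5 and 5 of 12 (Mfap4 at -1.84, Hes6 at 0.96). Interneuron markers were lower in 8 and higher in 2 of 12 (Gad2 at -1.19, Lhx6 at -1.07), striatal and lateral ganglionic eminence markers in 7 and 1 of 10 (Drd1 at -2.31, Rarb at -1.10), and oligodendrocyte precursor and astrocyte markers in 5 and 0 of 8 (Aldh1l1 at -2.19, Egfr at -1.57). Summed levels in wild-type and deleted libraries were 3436 to 3734 and 4153 to 4474 CPM for radial glia, 1566 to 1718 and 1765 to 1897 for intermediate progenitors, 1191 to 1386 and 1025 to 1060 for interneurons, 184 to 197 and 140 to 154 for the striatal list, and 99.3 to 109 and 71.8 to 81.6 for the glial list. No marker present in the table was at 0 in every library. With the meningeal level as a covariate, 5 of the 9 upper-layer genes were still called lower, Unc5d, Cux1, Pou3f1, Pou3f2 and Cux2 (edgeR adjusted p = 0.000478, 3.4e-05, 4.68e-05, 0.000918 and 0.00354). In that fit 3752 of all 15649 genes tested were called lower and 3724 higher. The part of the other lists was not tested.

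The pattern of the 9 genes over the 8 libraries was summarised as the mean of their standardised log2 levels. Single genes followed it to different degrees, from Pearson r = 0.99 for Unc5d to r = -0.47 for Lmo4. Each of the 9 is itself part of this mean, here and after the subtraction below, which tends to raise its r. Outside the 9, the genes with the highest r (0.996 to 0.997) were Cwf19l2, the transcription factor genes Zeb2 and Sox5, the potassium channel gene Kcna1, and Ttc39b. All 5 were called lower, Zeb2 at 217 ± 14.9 against 351 ± 27.0 CPM and Sox5 at 133 ± 9.86 against 288 ± 33.3 CPM. These correlations include the difference between the groups. After each group's mean was subtracted, the 9 genes did not share 1 pattern. Their own r then ran from 0.71 for Rorb to -0.26 for Cux1, and Pou3f1, Pou3f3 and Cux2 were also below 0 (-0.25, -0.08 and -0.08). Outside the 9, the highest r on this measure (0.972 to 0.989) belonged to Cttnbp2nl, Mir1839, Ppwd1, Dnajc28 and Zfp867, with no gene in both sets. All these values rest on the same 8 libraries and describe them only. Poly(A) RNA was read, so the Mir1839 reads do not measure the mature microRNA.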

How the data were processed

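The deposited values are raw whole-number counts of reads in each Entrez gene, made with Subread 1.5.0 and featureCounts on mm10, per the submitters' processing notes. The gene annotation, strand setting and treatment of multi-mapping reads are not stated in those sources, so overlapping and antisense genes and near-identical copies are uncertain. Groups came from the labels. Totals of 26312505 to 65523487 counts mean that 3 counts correspond to 0.0458 to 0.114 CPM, for counting error only.

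Counts were tested with edgeR 4.0.16 (R 4.3.3), by its quasi-likelihood F-test after TMM scaling and filterByExpr and with group as the only term, and p-values were adjusted by Benjamini-Hochberg over 15649 genes. CPM and RPKM use TMM-scaled library sizes, SE is the log2 fold change over the root of its F statistic, and log2 CPM uses a prior count of 2. Symbols and coordinates came from RefSeq (25275 genes matched). The matrix differed from the single-sample files in 0 values. On simulated counts with 200 of 15649 genes changed, 72% of 1.5-fold and 89% of 2-fold changes were recovered. In that simulation 11 unchanged genes were called, 6.36% of its calls. In the data 59.2% of genes were called, a far larger share than was changed in the simulation, so these rates need not hold for them. The alternatives used DESeq2 1.42.0 and limma 3.58.1 among others.

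The 9 genes, the lists and the tests were chosen with earlier results of these data known. Named genes are the 9, Taf8, up to 6 of each of the related lists by smallest adjusted p and those moving against the majority, up to 2 from each other list, and the 5 genes most like the 9 by each measure. A gene that this rule takes is not reported here, and some named genes fall outside it: Ldb1, Flrt2, Xlr3b and Xlr4b were picked as known partners, and Neurod6, Bhlhe22, Nefm, Nefl and Tcf7l2 for their place in their lists, after their values were seen.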

Additional observations from a re-analysis of the deposited data

Results flagged for a closer look

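Unc5d in wild-type replicate 3, at 92.3 CPM, lay far from the other wild-type libraries, which stood at 69.4 to 73.2 CPM: its gap to the nearest of them was 0.833 of the range of the group, above Dixon's critical value for 4 libraries at the 95% level. Of 26 groups of 4 examined, over the 9 genes and the 4 ratios, this was the 1 found, and chance gives about 1 in 20 groups. The deleted libraries, at 38.4 to 45.3 CPM, lay below all wild-type libraries with or without it.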

How the results depend on the processing

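Cux1, Pou3f1, Pou3f2 and Unc5d kept their direction and their call in all 23 alternatives, with log2 fold changes of -0.78 to -0.68, -0.62 to -0.50, -0.81 to -0.47 and -0.95 to -0.76. Cux2 lost its call in 1 of 23, Pou3f3 and Rorb in 2 each and Mdga1 in 14, while Lmo4 gained one in 3. The 23 include the single-sample files, which hold the same counts, so that alternative could not differ. An adjusted p under 0.01 and the test against a 1.2-fold change reuse the main log2 fold changes and can alter only the call. Leaving out 1 library in turn gave 7 to 8 genes lower and 0 to 1 higher, the 1 being Lmo4 without wild-type replicate 3. Lmo4 was also the 1 higher gene with library size alone and with voom quality weights. With the meningeal covariate 5 of the 9 were lower, and of all 15649 genes tested 3752 were lower and 3724 higher. A test against a 1.2-fold change, a stricter question, called 4 of the 9 lower and 2328 genes lower and 2307 higher overall.

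Relative to deep-layer in place of pan-neuronal markers, 1 of the 9 was lower and 4 were higher. Of all 15649 genes tested, 781 were then lower and 11916 higher, against 1202 and 10012 relative to pan-neuronal markers. Leaving out 1 library gave 3 to 4 lower and 2 to 3 higher. The sign of Cux2 turned without Neurod2, Neurod6 and Bhlhe22 in the reference list (-0.018), an alternative chosen after seeing the data. Rorb turned positive relative to deep-layer markers (0.085), without Nefm and Nefl in the reference list (0.0015) and without wild-type replicate 3 (0.0048). Its lowest value was -0.16, without Neurod2, Neurod6 and Bhlhe22 in the list, and it was -0.12 without wild-type replicate 1. Neither Cux2 nor Rorb was called where its sign turned. The causes were not tested.

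Same-numbered libraries did not deviate together (correlations of -0.28, 0.01, -0.07 and -0.46 for replicates 1 to 4, none highest with its own number). With the replicate number as a block, 7 of the 9 were lower, and 4170 genes were lower and 4115 higher. With paired replicate numbers the ratio differences were -0.42 for Cux1 to Cux2, -0.34 for Pou3f1 to Pou3f3 and -0.49 for Pou3f2 to Pou3f3, each at an exact sign-flip p = 0.125, the smallest that 4 pairs allow. Leaving out 1 library moved these ratio differences over -0.45 to -0.36, -0.37 to -0.30 and -0.55 to -0.40.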

Other observations

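Genes next to the 9 in GENCODE were read as values, picked by position after the data were seen. Pantr1, a noncoding gene within 2 kb of Pou3f3 on the opposite strand, stood at 103 ± 5.57 CPM in deleted and 105 ± 1.38 CPM in wild-type cortex (SD, n = 4), a log2 fold change of -0.02 (SE 0.04, edgeR adjusted p = 0.689), beside -0.20 for Pou3f3. Sh2b2, an adaptor protein gene within 2 kb of Cux1 on the same strand, stood at 28.8 ± 1.29 against 49.4 ± 2.6 CPM (log2 fold change -0.78, SE 0.05, edgeR adjusted p = 8.5e-07), beside -0.72 for Cux1. Pheta1, within 2 kb of Cux2 on the opposite strand, was higher by a log2 fold change of 0.17 (edgeR adjusted p = 0.0234). Differences within these pairs were not tested.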
